A study of Mus musculus with 64 samples.

Results

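The 9 genes described here encode transcription factors that define microglia: Spi1, Irf8, Sall1, Maf, Mef2a, Mef2c, Runx1, Cebpa and Cebpb. They were chosen by name, with earlier results of these data known. They are 9 of the 49671 genes in the count table, and all 9 passed the filter on low counts in every comparison. The 64 libraries hold total RNA of microglia from adult male C57BL/6 mice, given as C57BL6/N and 9 to 10 weeks old in the study's methods. Cells from the hippocampus or the frontal cortex were dissociated in the cold and retained on magnetic beads carrying an antibody to CD11b, a surface protein that other macrophages, monocytes and neutrophils also carry. The labels name a phase (day or night) and a condition (Soci, Cogn, Ctr0 or Ctr1), which gives 16 groups of 4 libraries. They do not say what the conditions were, whether day stands for the light or the dark part of the reversed lighting cycle, or which libraries came from 1 animal, so p-values measure the spread between these libraries.

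Microglia are the resident macrophages of the brain tissue. Spi1 encodes PU.1, an ETS factor that opens enhancers throughout the macrophage lineage, and Irf8 encodes a partner that binds with PU.1 and without which microglia do not mature normally. Runx1, Cebpa and Cebpb act earlier in myeloid development and persist in mature cells, where Cebpb is also known for its part in inflammatory transcription. Maf, Mef2a and Mef2c act at enhancers that PU.1 has opened, and Sall1, a zinc finger factor that depends on TGF-beta signalling, separates microglia from other macrophages. None of these genes belongs to the core circadian clock, and the comparison of day with night addresses how far the RNA of this programme differed between phases.

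Libraries held between 10.2 and 84.5 M counts, with a median of 15.9 M. In 3 hippocampal libraries (Night Soci 4, Night Cogn 4 and Day Cogn 4) it was above 40 M. The noncoding gene Gm26917 alone held 35.4% of all counts. Every one of the 64 libraries held the microglial markers P2ry12, Tmem119 and Cx3cr1, with at least 1154, 645 and 1993 CPM, where CPM is a gene's share of the library's counts, set to a common total by edgeR's TMM factors. Even Cebpb, the member with fewest reads, had at least 149 counts in each library and a median of 294, while Sall1 had at least 4857. The clock genes Per2 and Nr1d1 were used to check that libraries of the phase labels differed. Per2 was 1.12 ± 0.14 (SE) log2 higher in day in the hippocampus and 1.27 ± 0.12 in the frontal cortex. Nr1d1 was lower in day (-1.87 ± 0.21 and -1.84 ± 0.22). Day is used here as the label gives it and is not to be read as the light phase. The paper sampled these mice in both phases of a reversed cycle, with lights off in the daytime hours of the clock. Whether day was the light part of the cycle was not tested.

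The 250 bases before the annotated start are printed for the 3 members with the largest day-night changes in both regions, chosen after those changes were seen, so that their letters can be compared (RefSeq, GRCm38.p6, read 5′ to 3′ on the strand of the gene). Capitals mark TATAAA in Cebpa (chr7:35119043-35119292, plus strand), TGACG or its reverse CGTCA in Cebpb (chr2:167688665-167688914, plus strand) and CACGTG in the upstream promoter of Runx1 (chr16:92826075-92826324, minus strand).
Cebpa: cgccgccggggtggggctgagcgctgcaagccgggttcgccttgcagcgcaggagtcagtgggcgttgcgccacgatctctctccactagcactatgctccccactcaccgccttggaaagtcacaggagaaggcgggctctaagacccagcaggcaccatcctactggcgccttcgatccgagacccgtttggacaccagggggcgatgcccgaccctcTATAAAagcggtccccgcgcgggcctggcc
Cebpb: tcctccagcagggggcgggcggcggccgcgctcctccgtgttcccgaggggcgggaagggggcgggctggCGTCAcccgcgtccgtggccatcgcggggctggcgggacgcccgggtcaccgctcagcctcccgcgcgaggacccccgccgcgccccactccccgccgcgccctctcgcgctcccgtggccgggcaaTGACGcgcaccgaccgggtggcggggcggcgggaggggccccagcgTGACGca
Runx1: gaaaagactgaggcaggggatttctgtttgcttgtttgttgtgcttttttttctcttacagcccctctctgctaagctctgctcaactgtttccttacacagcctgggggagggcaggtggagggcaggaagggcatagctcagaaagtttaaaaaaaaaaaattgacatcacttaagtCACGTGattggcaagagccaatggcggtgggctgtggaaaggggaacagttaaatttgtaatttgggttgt

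The 3 regions share no marked motif. In Cebpa the TATAAA starts 30 bases before the gene's start. In Cebpb the 3 marked copies start 180, 53 and 7 bases before it, in a region with 81.6% G and C, against 66.4% for Cebpa and 45.6% for Runx1. In Runx1 the CACGTG, the E-box letters bound by the clock proteins CLOCK and BMAL1 among many others, starts 71 bases before the RefSeq start. In the GENCODE annotation, used here for names and lengths, Runx1 runs to chr16:92826149, inside this window. The CACGTG lies within that gene. The other Runx1 promoter searched (chr16:92697330-92697579), not printed, held no CACGTG. The same 250 base window was searched on both strands in 32851 promoters. TATAAA was held by 12.4% of them, TGACG by 17.8%, CACGTG by 6.02%, GAGGAA (an ETS type core) by 23.3%, TTGCNNAA (a C/EBP type site) by 9.56% and TGANTCA (an AP-1 type site) by 6.75%. Promoters were matched for 7 of the 9 members, 13 in all. Of those 13, 4 held TATAAA (Cebpa, Irf8 and 2 of the promoters of Mef2c), 2 held TGACG (Cebpb and Sall1), 4 held GAGGAA (among Mef2a, Mef2c and Runx1), 1 held CACGTG (Runx1), 1 held TGANTCA (Mef2c) and 0 held TTGCNNAA. A match of letters is a description and not a binding site.

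Levels were first set side by side per kilobase of annotated exon, since CPM cannot be compared between genes of different length. Sall1 stood highest, with a median of 108.5 CPM per kb and a range of 78.5 to 142 over the 64 libraries. It was above the next gene, Cebpa, in 64 of 64 libraries. Cebpa had a median of 49.8, Maf 46.0, Mef2a 41.1, Irf8 37.3 and Spi1 27.6 CPM per kb, followed by Mef2c at 24.1, Cebpb at 12.7 and Runx1 at 11.7.

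Some neighbours in that order were not separated. Cebpa was above Maf in 41 of 64 libraries and Cebpb above Runx1 in 42, so the genes of these 2 pairs overlapped over most of their range. Maf was above Mef2a in 57 libraries, Mef2a above Irf8 in 52 and Spi1 above Mef2c in 59. Irf8 was above Spi1, and Mef2c above Cebpb, in 64 of 64. The exon lengths join all annotated isoforms, 14681 bases in Mef2a and 15715 in Mef2c against 1504 in Cebpb, and an exon that is annotated and not used lowers the level per kb. Spi1 stood sixth of the 9 on this scale.

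**Figure D1:**
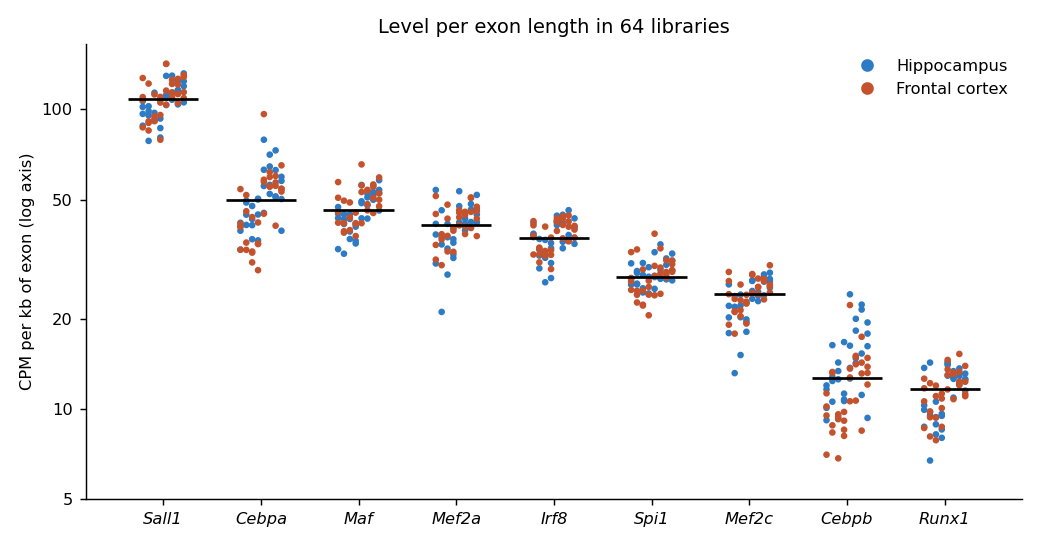
Level of each gene in CPM per kb of annotated exon (log axis), 1 point per library (64), coloured by region, with a black line at the median. The horizontal spread within a gene carries no measurement. Sall1 lies apart at a median of 108.5, and Cebpb and Runx1 lie lowest and overlap.

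Day and night were then compared within each region over 16 and 16 libraries with edgeR's quasi-likelihood F test. Under TMM scaling all 9 members were higher in day in the hippocampus, and all 9 in the frontal cortex, with an adjusted p under 0.05 in each case (Spi1 turned lower in the hippocampus with library totals, and Spi1 and others with scaling to microglial markers). The changes were small, 1.10-fold to 1.404-fold in the hippocampus and 1.13-fold to 1.48-fold in the frontal cortex. In the hippocampus 42.2% of all tested genes passed the threshold and 23.4% passed it as higher in day, and in the frontal cortex 41.8% and 20.6%. Of genes tested in both regions, 17.1% were higher in day in both. The median log2 change of the members was 0.35 in the hippocampus and 0.23 in the frontal cortex, beside 0.02 and -0.02 over all genes tested. The rise in CPM depended on the scaling for part of the members, as given after their values. In bulk RNA, fewer cells of a type and less RNA per cell cannot be told apart.

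Cebpa, the C/EBP factor that directs myeloid commitment, had the most day libraries above every night library, counted over both regions. In hippocampal day libraries it ran from 104 to 209 CPM with a median of 150, and in night libraries from 89.7 to 133 with a median of 112. The cortical day range was 108 to 254 with a median of 148, and the night range 76.6 to 143 with a median of 94.4. These numbered 13 of 16 in each region. The log2 change was 0.46 ± 0.08 (adjusted p = 9.2e-06) in the hippocampus and 0.57 ± 0.09 (adjusted p = 1.11e-05) in the frontal cortex.

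Cebpb ran from 14.02 to 36.3 CPM in hippocampal day libraries (median 24.4) and from 13.8 to 25.1 in night libraries (median 17.7). Cortical libraries ran from 12.7 to 33.4 in day (median 20.6) and from 10.3 to 19.96 in night (median 14.03). The groups overlapped, with 7 of 16 hippocampal and 9 of 16 cortical day libraries above every night library of the region. This was a log2 change of 0.49 ± 0.11 (adjusted p = 4.43e-04) and 0.52 ± 0.10 (adjusted p = 1.44e-04). The gene is a single exon on the opposite strand from exons of Tmem189, whose own day-night changes did not pass the threshold and whose level was between 12.7 and 13.6 CPM on average in the 4 region and phase sets. Counting used strand, so these reads were told apart.

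Runx1, a core binding factor of blood development, ran from 131 to 172 CPM in hippocampal day libraries (median 154) and from 80.8 to 172 in night libraries (median 114). All but 2 of the night libraries, 14 of 16, were below the lowest day library. Cortical day libraries ran from 130 to 183 (median 157) and night libraries from 94.5 to 152 (median 124), and 9 of 16 day libraries were above every night library. Runx1 thus differed by 0.43 ± 0.07 in log2 (adjusted p = 1.35e-05) in the hippocampus and 0.30 ± 0.06 (adjusted p = 1.05e-04) in the frontal cortex. The 2 high night libraries came from Soci and Cogn.

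Sall1 ran from 545 to 695 CPM in hippocampal day libraries (median 605) and from 414 to 599 in night libraries (median 506), and 13 of 16 night libraries were below every day library. Cortical libraries ran from 546 to 748 in day (median 623) and from 417 to 671 in night (median 502). There 9 of 16 night libraries were below every day library. Sall1 differed by 0.31 ± 0.05 in log2 (adjusted p = 5.96e-06) and 0.25 ± 0.06 (adjusted p = 8.11e-04).

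Maf ran from 356 to 478 CPM in hippocampal day libraries (median 423) and from 272 to 389 in night libraries (median 341), so that 13 of 16 day libraries were above every night library. In the frontal cortex, where it ran from 344 to 540 (median 435) against 311 to 471 (median 352), only 2 of 16 were. For Maf the log2 change was 0.35 ± 0.05 (adjusted p = 1.85e-06) and 0.23 ± 0.06 (adjusted p = 0.00141).

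The MEF2 factors are MADS box proteins that are also abundant in neurons. Mef2c ran from 360 to 448 CPM in hippocampal day libraries (median 408) and from 207 to 409 in night libraries (median 331). Cortical libraries ran from 365 to 474 (median 406) against 280 to 450 (median 356). Below every day library of Mef2c lay 13 of 16 night libraries in the hippocampus and 10 of 16 in the frontal cortex. Mef2a ran from 579 to 783 (median 626) against 309 to 790 (median 534) in the hippocampus, and from 554 to 746 (median 658) against 443 to 755 (median 561) in the frontal cortex. In both regions the highest Mef2a library was a night library from Soci, and 0 of 16 day libraries were above it. The log2 change of Mef2c was 0.35 ± 0.07 (adjusted p = 7.31e-05) and 0.20 ± 0.05 (adjusted p = 0.00136), and that of Mef2a was 0.31 ± 0.08 (adjusted p = 0.00206) and 0.17 ± 0.06 (adjusted p = 0.0137). Without replicate number 1 in either phase Mef2a lost its call in the hippocampus (adjusted p = 0.066), and without number 1, 2 or 3 in the frontal cortex (adjusted p = 0.058, 0.056 and 0.067).

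Irf8 ran from 243 to 325 CPM in hippocampal day libraries (median 288) and from 187 to 295 in night libraries (median 241). In the frontal cortex it ran from 256 to 312 (median 289) against 207 to 299 (median 238). The log2 change was 0.27 ± 0.06 (adjusted p = 2.14e-04) and 0.21 ± 0.04 (adjusted p = 1.52e-04), and 11 of 16 cortical night libraries were below every day library.

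Spi1 had the smallest change in the hippocampus and, after Mef2a, in the frontal cortex. It ran from 67.8 to 95.5 CPM in hippocampal day libraries (median 76.5) and from 65.3 to 82.7 in night libraries (median 73.4). Its cortical range was 64.6 to 104 (median 77.8) against 55.3 to 91.8 (median 67.1). Above every night library lay 5 of 16 day libraries in the hippocampus and 2 of 16 in the frontal cortex. The log2 change was 0.14 ± 0.05 (adjusted p = 0.0137) and 0.18 ± 0.06 (adjusted p = 0.0214). The call in the hippocampus was lost without replicate number 1 (adjusted p = 0.088), 2 (log2 change 0.04, adjusted p = 0.526) or 3 (adjusted p = 0.106), and in the frontal cortex without number 1, 2 or 3 (adjusted p = 0.126, 0.118 and 0.079).

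**Figure D2:**
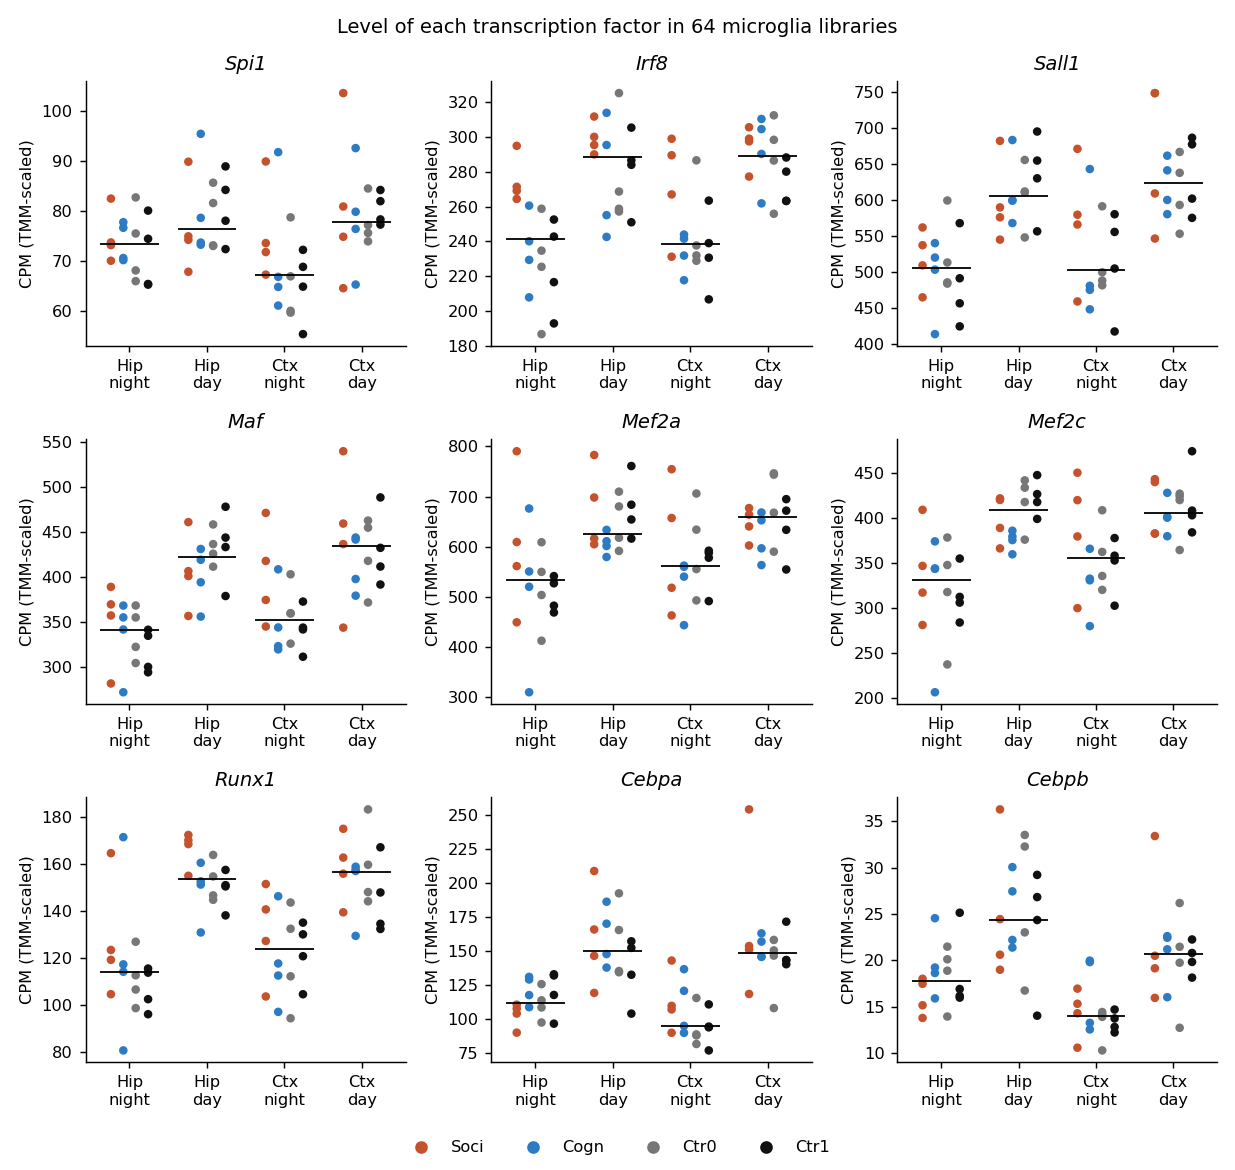
CPM (TMM-scaled, axes not starting at 0) of each gene in each of the 64 libraries, by region and phase (Hip, hippocampus, and Ctx, frontal cortex), coloured by condition, with a line at the median of 16 libraries. Under this scaling day medians are above night medians in every panel, and the day and night points of Spi1 overlap widely.

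The size of the change depended on what the libraries were scaled to. A list of 12 microglial markers (among them P2ry12, Tmem119 and Cx3cr1) was itself higher in day, by a mean log2 CPM of 0.21 in the hippocampus (permutation test, adjusted p = 6.84e-04, n = 16 per phase) and 0.24 in the frontal cortex (adjusted p = 0.00882). When libraries were scaled to these 12 genes, 4 of 9 members passed the threshold in the hippocampus. Of all genes tested, 7781 of 15527 passed there under this scaling, and 7420 of 14975 in the frontal cortex. Maf (0.12 ± 0.05, adjusted p = 0.031), Runx1 (0.20 ± 0.08, adjusted p = 0.043) and Cebpa (0.21 ± 0.07, adjusted p = 0.011) were higher in day, and Spi1 was lower (-0.10 ± 0.04, adjusted p = 0.022). Cortical libraries kept 2 of 9, Cebpa (0.34 ± 0.07, adjusted p = 1.85e-04) and Cebpb (0.28 ± 0.10, adjusted p = 0.022). The other cortical members lay between -0.05 (Mef2a) and 0.08 (Runx1) and missed the threshold. That scaling moved the median of all genes to -0.21 and -0.25 and the share of called genes that were higher in day from 55.5% to 5.46% in the hippocampus and from 49.2% to 4.31% in the frontal cortex. Scaling by library totals alone moved the median to -0.14 and -0.09 and that share to 6.18% and 16.2%, and left 2 of 9 members past the threshold in each region, Cebpa and Cebpb. Of all genes tested, 4288 of 15527 passed with library totals in the hippocampus and 4061 of 14975 in the frontal cortex. Relative to the median of all genes, the members were between 0.11 (Spi1) and 0.45 (Cebpb) log2 higher in day in the hippocampus under the microglial scaling, and between 0.20 (Mef2a) and 0.59 (Cebpa) in the frontal cortex.

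**Figure D3:**
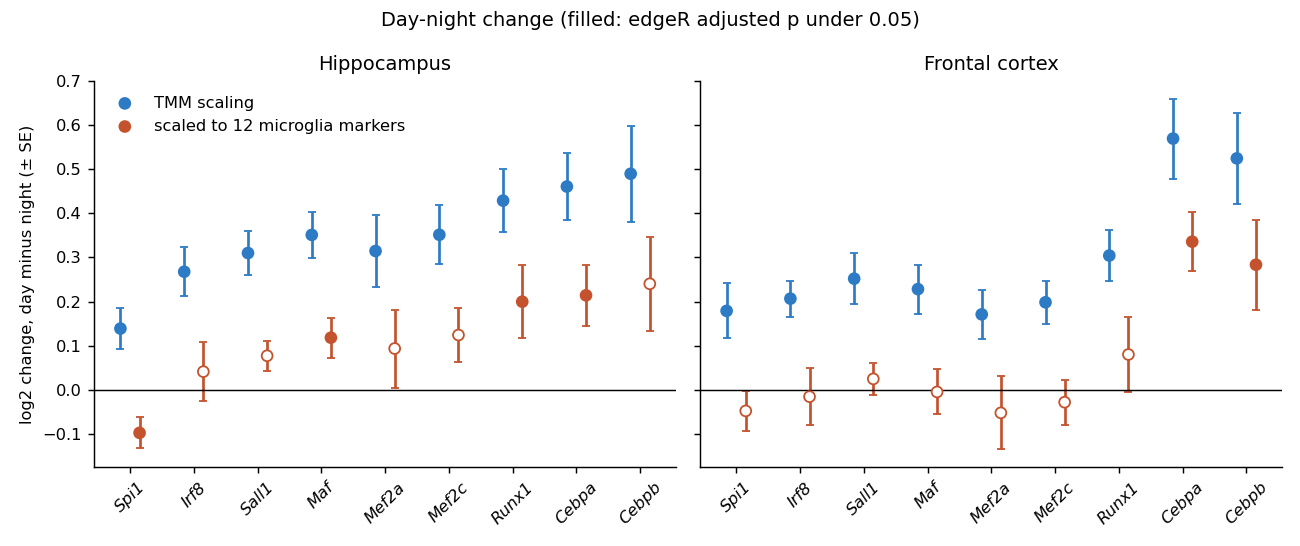
Log2 change from night to day with its SE for each gene, in the hippocampus and the frontal cortex, scaled by TMM (blue) or to 12 microglial markers (orange). Filled points have an edgeR adjusted p under 0.05. All 9 genes are above 0 under TMM in both regions, and under the other scaling only Cebpa is filled and above 0 in both regions while Spi1 is below 0 in both.

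A ratio of 2 members within a library does not depend on scaling. In the hippocampus 6 of 10 such log2 ratios differed between phases (2-sided permutation tests with 100000 resamples, adjusted over 20 ratios, n = 16 per phase). Relative to Spi1, Sall1 was 0.18 higher in day (adjusted p = 2e-04), Maf 0.22 (adjusted p = 9e-04), Mef2c 0.23 (adjusted p = 0.0102), Runx1 0.31 (adjusted p = 0.00453), Cebpa 0.31 (adjusted p = 9e-04) and Cebpb 0.33 (adjusted p = 0.0145). Irf8 relative to Spi1 (0.14, adjusted p = 0.105) and Mef2a relative to Spi1 (0.20, adjusted p = 0.0993) missed the threshold. In the frontal cortex 2 of 10 ratios passed, Cebpa to Spi1 (0.38, adjusted p = 2e-04) and Cebpb to Spi1 (0.33, adjusted p = 0.00453). Mef2c against Mef2a moved by 0.03 and 0.02, and Cebpb against Cebpa by 0.02 and -0.05, and none of these 4 passed. Without replicate number 4 the hippocampal count fell to 3. Of the ratios, 5 per region were added after the first values were seen. These were Mef2a, Mef2c, Runx1, Cebpa and Cebpb, each to Spi1. The planned ratios that passed were Sall1 and Maf to Spi1 in the hippocampus, and no planned ratio passed in the frontal cortex. All ratios that passed share Spi1 and are not independent. The share of all genes whose ratio to Spi1 differed between phases was not computed. Under TMM scaling in the hippocampus, 70.6% of tested genes had a lower log2 change than Spi1. For the other members that share ran from 88.6% (Irf8) to 97.9% (Cebpb).

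Markers of other cells also moved with phase. The 9 markers of border macrophages, the CD11b carrying macrophages of the meninges and vessels, were higher in day in 9 of 9 cases in the hippocampus and 7 of 9 in the frontal cortex, with Lyve1 at 1.957 ± 0.15 and 2.00 ± 0.16 and Cd163 at 1.33 ± 0.15 and 1.17 ± 0.16. No library had 0 counts of any of them. Their summed level, most of it from Stab1 (median 839 CPM), ran from 927 to 1523 CPM in hippocampal day libraries against 690 to 1096 in night libraries, and from 980 to 1602 against 733 to 1237 in the frontal cortex. The microglial list summed to 12396 to 17250 CPM against 10271 to 14878 in the hippocampus, and to 12866 to 20477 against 10026 to 17667 in the frontal cortex. By test, 8 and 5 of these 12 microglial genes passed as higher in day. Markers of astrocytes were lower in day in 7 of 8 cases in each region (Slc1a3 was higher in the hippocampus, 0.40 ± 0.08), those of the oligodendrocyte lineage in 9 and 7 of 10, those of neurons in 3 and 9 of 10, and those of endothelial and mural cells in 6 and 2 of 9 tested. Markers of choroid plexus and ependyma were lower in 8 of 8 in the hippocampus (Ttr by -2.44 ± 0.54) and in 0 of 4 in the frontal cortex. Of the 4 neutrophil and monocyte markers tested, Ccr2 was higher (0.49 ± 0.18) and Ngp lower (-0.80 ± 0.28) in the hippocampus and 0 passed in the frontal cortex. Ly6g, which defines neutrophils, had a median of 0.0682 CPM and was at 0 in 16 of 64 libraries. Of 9 immediate early and stress genes that respond to cell isolation, 4 were higher and 1 lower in the hippocampus, and 1 higher and 3 lower in the frontal cortex.

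An other cell score averaged the lists of neurons, astrocytes, oligodendrocyte lineage, endothelial and mural cells, and choroid plexus and ependyma. It held no list of macrophages, neutrophils or monocytes. With this score as a covariate, 1 of 9 members (Cebpa, 0.45 in log2, adjusted p = 0.029) kept its call in the hippocampus and 2 (Cebpa and Cebpb) in the frontal cortex. Mef2a then stood at -0.01 and Spi1 at 0.05 in the hippocampus. Of all genes tested, 1291 of 15527 passed with this score in the hippocampus and 2750 of 14975 in the frontal cortex. With a border macrophage score as a covariate, added after the first values were seen, 1 of 9 (Irf8, adjusted p = 0.039) passed in the hippocampus and 2 (Irf8, adjusted p = 0.026, and Cebpa, adjusted p = 0.024) in the frontal cortex. Of all genes tested, 944 of 15527 and 1432 of 14975 passed with the border macrophage score. The members' median log2 change with that score was 0.21 in the hippocampus, against 0.35 without it, and 0.20 in the frontal cortex, where it was 0.23 without it and the members ran from 0.15 to 0.45. Both scores moved with phase, so such a fit cannot separate phase from cell makeup.

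**Figure D4:**
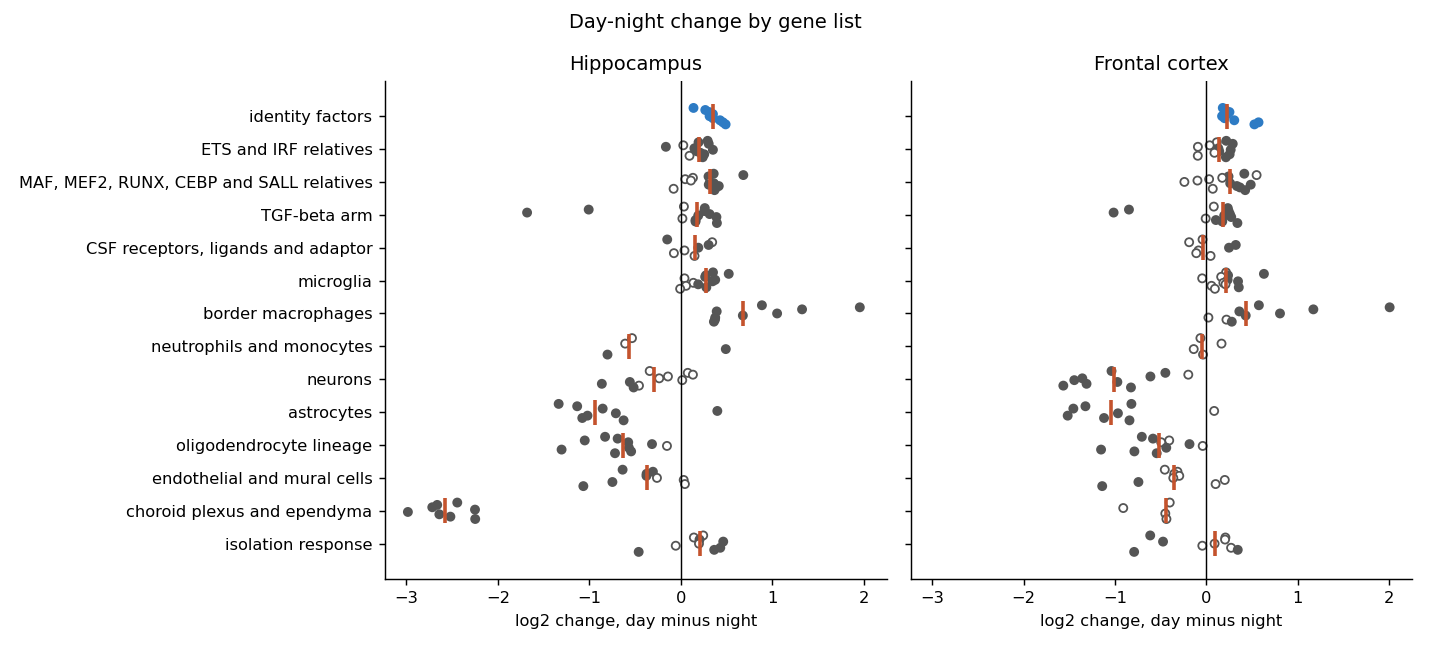
Log2 change from night to day of each tested gene (points, filled where the edgeR adjusted p is under 0.05) by list, with the list median in orange, in the hippocampus and the frontal cortex under TMM scaling. The 9 identity factors and most macrophage lists lie to the right of 0, and lists of neurons, astrocytes and oligodendrocytes to the left.

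The related factors were examined next. Of 14 other ETS and IRF genes 12 were tested, and 9 were higher in day in the hippocampus and 7 in the frontal cortex. Irf2, a regulator of interferon responses, rose by 0.35 ± 0.04 and 0.27 ± 0.04, Elf4 by 0.30 ± 0.05 and 0.29 ± 0.05 and Irf5 by 0.26 ± 0.05 and 0.25 ± 0.04. Ets2 was the 1 gene lower in day in the hippocampus (-0.16 ± 0.06). Irf7, the interferon induced member, stood at 0.09 ± 0.14 and -0.09 ± 0.14.

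Of 16 relatives in the MAF, MEF2, RUNX, C/EBP and SALL families 13 were tested, and 8 rose in the hippocampus and 7 in the frontal cortex. Cebpd, an acute phase C/EBP gene, rose by 0.31 ± 0.07 and 0.48 ± 0.08. Cbfb, the partner subunit of Runx1, rose by 0.36 ± 0.06 and 0.26 ± 0.05, and Sall3, the closest relative of Sall1 tested, by 0.37 ± 0.05 and 0.42 ± 0.05. Mef2d stood at 0.05 ± 0.04 and 0.03 ± 0.04, and its difference from Mef2a and Mef2c was not tested. These directions are under TMM scaling.

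The inputs that maintain these factors divided. Of 12 genes of the TGF-beta arm, 8 were higher and 2 lower in day in each region. Smad2, which carries the signal, rose by 0.39 ± 0.06 and 0.27 ± 0.05, the type I receptor Tgfbr1 by 0.31 ± 0.06 and 0.26 ± 0.07, and Nrros, which holds latent TGF-beta1 on microglia, by 0.26 ± 0.06 and 0.23 ± 0.05. Skil, a target and inhibitor of the pathway, rose by 0.39 ± 0.05 and 0.34 ± 0.05. The 2 that fell were Itgb8 (-1.68 ± 0.18 and -1.02 ± 0.25), an integrin subunit that releases TGF-beta and is found on glia, and Lrrc32 (-1.01 ± 0.14 and -0.85 ± 0.23), a carrier of latent TGF-beta found on endothelium. Tgfb1 itself stood at 0.03 ± 0.04 and 0.08 ± 0.06. Of 7 genes for CSF ligands, receptors and adaptor, Csf1r, the receptor on which microglial survival depends, rose by 0.30 ± 0.06 and 0.32 ± 0.08 and Tyrobp by 0.19 ± 0.06 and 0.25 ± 0.09, and Csf1 was lower in the hippocampus (-0.15 ± 0.06). Hippocampal Tyrobp stood at -0.05 when scaled to the microglial markers and at -0.0075 with the border macrophage score.

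The 16 groups of 4 libraries are described under TMM scaling. For each member the day mean was above the night mean in 8 of 8 region and condition sets, as it was for 19.4% of all genes tested in both regions. The 8 sets share no library, but the labels do not say whether hippocampal and cortical libraries came from the same animals. The 9 genes were measured in the same libraries. The largest such difference was for Cebpa in cortical Ctr1 (0.68, from 93.7 to 150 CPM) and the smallest for Spi1 in hippocampal Soci (0.03, from 74.9 to 76.7 CPM). From the lowest to the highest of the 16 group means, Cebpb spanned 2.00-fold, from 13.2 ± 1.95 CPM (SD, n = 4) in cortical Night Ctr0 to 26.4 ± 7.96 in hippocampal Day Ctr0. Cebpa spanned 1.82-fold, Runx1 1.56-fold and Spi1 1.24-fold, from 65.3 ± 7.30 in cortical Night Ctr1 to 81.0 ± 16.5 in cortical Day Soci. Hippocampal Night Ctr1 was the lowest group for Sall1, Maf and Runx1, by mean CPM and by mean log2 CPM. Irf8, Mef2a and Mef2c were lowest there by mean CPM but in hippocampal Night Ctr0 (Irf8) or Night Cogn by mean log2 CPM.

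**Figure D5:**
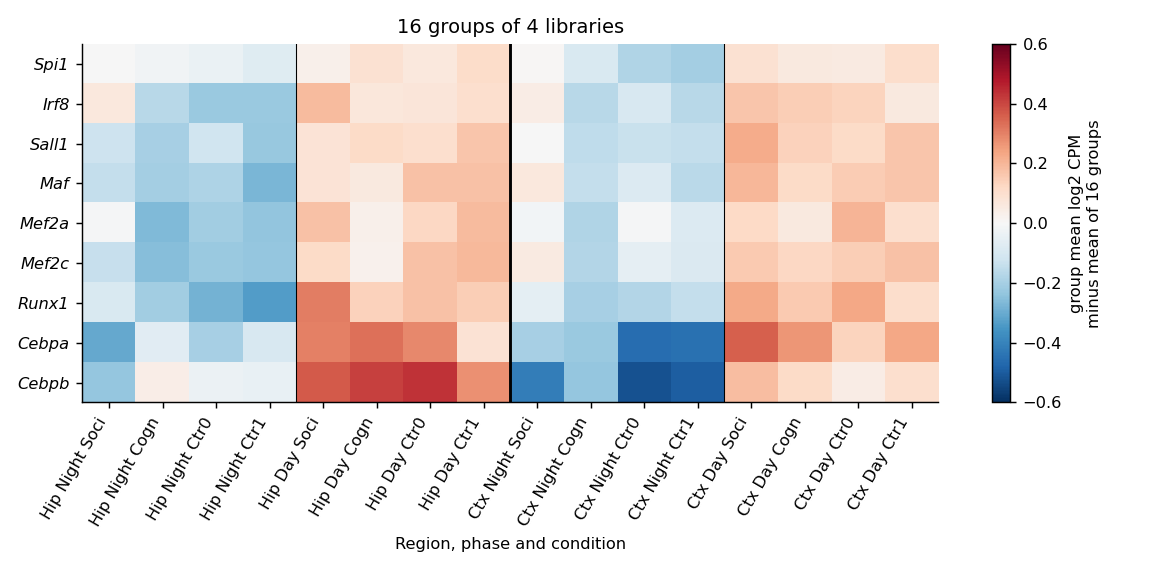
Mean log2 CPM of each gene in each of the 16 groups (4 libraries each), less the mean over the 16 groups, from blue (lower) to red (higher). Under TMM scaling each day group is above the night group of the same region and condition for every gene, and Cebpa and Cebpb show the widest range.

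For the 4 conditions the calls depended on the scaling. In edgeR's test over the 4 conditions 0 of 9 members passed in either region, 0 were under an unadjusted p of 0.05, and DESeq2 called 0, while 0.0% of all genes passed in each region. Scaled by library totals alone, 4 of 9 members and 3814 genes passed in the hippocampus and 0 of each in the frontal cortex, and without replicate number 1 under TMM 0 members and 328 genes passed in the hippocampus. Irf8 came closest, with 287 ± 16.9 CPM (SD, n = 8) in hippocampal Soci against 256 ± 34.6 in Cogn, 252 ± 39.7 in Ctr0 and 254 ± 37.5 in Ctr1 (edgeR adjusted p = 0.668). In the frontal cortex it had 283 ± 24.6 in Soci against 254 ± 27.0 to 267 ± 32.7 in the others (edgeR adjusted p = 0.719). Of 54 pairwise tests per region 0 passed, 3 and 2 were under an unadjusted p of 0.05 in the hippocampus and the frontal cortex, and the largest difference was Cebpa in cortical Soci against Ctr0 (0.28 ± 0.13, edgeR adjusted p = 0.461). The day-night change did not pass a test for differing among conditions for any member, the lowest unadjusted edgeR p being 0.237 for Cebpa in the hippocampus and 0.572 for Irf8 in the frontal cortex. DESeq2 called 0 members there too. Of all genes 0.0% passed that test in the hippocampus and 0.00616% in the frontal cortex.

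Between the regions, averaged over both phases and all 64 libraries, 1 of 9 members differed, while 16.6% of all genes did and 10.4% were higher in the hippocampus. Cebpb was 0.31 ± 0.07 log2 higher in the hippocampus (edgeR adjusted p = 0.00179), at 25.1 ± 6.19 CPM (SD, n = 16) in day and 18.2 ± 3.35 in night against 20.8 ± 4.62 and 14.3 ± 2.73 in the frontal cortex. The call was lost without replicate number 2 (adjusted p = 0.060) or 4 (adjusted p = 0.053). For the other 8 the 95% intervals of the difference lay between -0.16 and 0.19. Within night libraries Cebpb passed (0.35 ± 0.11, adjusted p = 0.0170), where 13.9% of all genes did. Within day libraries it did not (0.27 ± 0.11, adjusted p = 0.254), where 0.00622% did. That share depended on the setting. In day libraries 161 genes passed with DESeq2, and 0 to 1924 with a replicate left out. Averaged over both phases and scaled to the microglial markers, Spi1 (0.12, adjusted p = 0.002) and Cebpa (0.16, adjusted p = 0.012) passed beside Cebpb (0.39). Cebpd was also higher in the hippocampus, by 0.22 ± 0.05. Markers of choroid plexus and ependyma were higher there in 8 of 8 cases, and neutrophil and monocyte markers lower in 5 of 6 tested, and their part in the Cebpb difference was not tested.

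The day-night change itself did not differ between the regions beyond its error for any of the 9 members, where 1.19% of all genes passed. The largest difference was for Cebpa (-0.15 ± 0.12 for hippocampus relative to frontal cortex, edgeR adjusted p = 0.771, 95% interval -0.38 to 0.08). None was under an unadjusted p of 0.05, and DESeq2 called 0.

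Last, the genes whose 16 group means ran most like each member were listed from 10931 genes, by Pearson's r over the 16 groups. These values describe groups that share the day-night contrast and carry no test. Spi1 ran most like Fscn1 (r = 0.95) and C5ar1 (0.95), the complement C5a receptor, and Sall1 most like Cttnbp2nl (0.99) and C5ar2 (0.98). Irf8 ran most like Mafg (0.97) and Lcp2 (0.97), Maf like Pip4k2a (0.99) and Tbc1d5 (0.98), and Dennd4a was among the genes most like Mef2a (0.98). Mef2c ran most like Maf, another member (0.98), and Rap1gds1 (0.98), and Runx1 like Papola (0.99) and Ankrd44 (0.99). Cebpa ran most like Fkbp4 (0.99) and Cacybp (0.98), a cochaperone and a ubiquitin ligase adaptor, and Cebpb like AI837181 (0.95) and Trim8 (0.95).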

How the data were processed

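Total RNA of CD11b-sorted microglia was measured in 64 libraries. The authors removed ribosomal RNA, aligned the single-end reads to GRCm38 by STAR 2.7.3a and counted reads per gene by featureCounts (Subread 2.0.0), and deposited those raw counts. Their strand setting is not given in the sources used here. Noncoding genes nested in another gene had a median of 2275 counts per kb on the host's strand (826 genes) and 3.01 on the other (531), so counting used strand. Of 49671 genes 49412 were matched to GENCODE M21.

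Counts were fitted with edgeR 4.0.16 in R 4.3.3 (TMM, filterByExpr, quasi-likelihood F test), with Benjamini-Hochberg adjustment over all genes tested and a threshold of 0.05. The fits were tested on simulated data. Day-night fits held the 32 libraries of 1 region. The SE is the size of a log2 change over the root of its F. Log2 CPM used a prior count of 2. Ratios and list scores (mean centred log2 CPM) were compared by permuting the phase labels, 2-sided, with 100000 resamples and a smallest p of 2e-05. Alternatives were DESeq2 1.42.0, other scalings and filters, covariates, a replicate block and leaving out replicates. All 9 members are named in each comparison, and other lists by up to 4 genes of lowest p past the threshold, with further members of those lists named after their values were seen. The members and lists were chosen with earlier results of these data known. No 2 libraries were identical, and depth was 10.2 to 84.5 M counts. Some genes that the naming rules pick are not reported here.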

Additional observations from a re-analysis of the deposited data

Results flagged for a closer look

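In 10 of 144 sets of 4 libraries (9 members in 16 groups), the highest or lowest library stood apart from the other 3 by Dixon's test, where chance gives about 1 in 20, or 7.2. Irf8 had 325 CPM in hippocampal Day Ctr0 replicate 1 against 257 to 269 in the others, and 287 in cortical Night Ctr0 replicate 3 against 229 to 238. Sall1 had 643 in cortical Night Cogn replicate 4 against 448 to 481, and 591 in cortical Night Ctr0 replicate 3 against 481 to 499. Mef2a had 491 in cortical Night Ctr1 replicate 2 against 578 to 592. Mef2c had 365 in cortical Day Ctr0 replicate 1 against 420.03 to 427. Runx1 had 130 (129.55) in cortical Day Cogn replicate 1 against 157 to 159. Cebpa had 172 in cortical Day Ctr1 replicate 3 against 140.17 to 143. Cebpb had 25.1 in hippocampal Night Ctr1 replicate 3 against 15.97 to 16.9, and 10.3 in cortical Night Ctr0 replicate 4 against 13.9 to 14.4. Cortical Night Ctr0 replicate 3 was flagged for both Irf8 and Sall1.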

How the results depend on the processing

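DESeq2, median-of-ratios size factors, leaving out genes over 1% of counts, condition as a covariate and leaving out the 3 libraries over 40 M kept all 9 members past the threshold in each day-night comparison they were run for, and without a count filter 8 were past it in the hippocampus. Of all genes, 6024 to 6664 passed under these settings in the hippocampus and 6139 to 6454 in the frontal cortex. The main fits had 6550 and 6267. Of single values, 192 kept their direction and lost the threshold, 40 with the other cell score, 38 with library totals, 31 with the border macrophage score, 24 with microglial scaling and 49 with a replicate left out. The causes were not tested. Depth was at least 149 counts for each member in each library.

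In the hippocampus the members past the day-night threshold numbered 2 with library totals, 1 with the other cell score, 1 with the border macrophage score and 4 with microglial scaling, and in the frontal cortex 2 in each of these. All genes past it numbered 4288, 1291 and 944 in the hippocampus and 4061, 2750 and 1432 in the frontal cortex with library totals, other cell score and border macrophage score, and 4319 to 7356 and 3941 to 6403 with a replicate left out. With microglial scaling 7781 genes passed in the hippocampus and 7420 in the frontal cortex. Between regions, members past the threshold numbered 3 with microglial scaling and 0 to 1 with a replicate left out, and all genes 1151 with the other cell score and 1322 to 3516 with a replicate left out. Genes whose day-night change differed between regions numbered 95 with microglial scaling, 107 without libraries over 40 M and 15 to 224 with a replicate left out. For conditions in the hippocampus, library totals gave 4 members and 3814 genes, DESeq2 6 genes, and a replicate left out 0 to 328. In the frontal cortex DESeq2 and no count filter gave 1 gene each. For phase by condition, DESeq2 gave 15 and 11 genes, and in the frontal cortex library totals, leaving out genes over 1% of counts, and a replicate left out gave 0. Hippocampal ratios past the threshold numbered 3 to 8 with a replicate left out.

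Directions that turned were these, in log2. Day-night in the hippocampus gave -0.031 for Spi1 with library totals and -0.098 with microglial scaling, -0.012 for Mef2a and -0.0041 for Irf5 with the other cell score, and for Tyrobp -0.0075 with the border macrophage score and -0.052 with microglial scaling. In the frontal cortex microglial scaling gave -0.048 for Spi1, -0.016 for Irf8, -0.0050 for Maf, -0.052 for Mef2a, -0.028 for Mef2c and -0.024 for Irf9. Between regions, library totals gave -0.074 for Spi1, -0.032 for Cebpa and -0.026 for Smad7. The other cell score gave 0.072 for Irf8, 0.021 for Sall1, 0.022 for Maf, 0.091 for Mef2a, 0.018 for Mef2c, 0.1002 for Runx1 and 0.0075 for Csf2rb, and microglial scaling 0.050 for Irf8, 0.027 for Sall1, 2.03e-05 for Maf, 0.032 for Mef2a and 0.041 for Runx1. For region by phase, library totals gave -0.036 for Irf8 and -0.037 for Sall1, the other cell score -0.031 and -0.019, and a replicate left out -0.016 to 0.061 for Irf8. With a replicate left out, ratios ran from -0.024 to 0.063 for Mef2c to Mef2a and -0.048 to 0.072 for Cebpb to Cebpa in the hippocampus, and in the frontal cortex from -0.028 to 0.054 for Irf8 to Spi1, -0.059 to 0.045 for Mef2a to Spi1 and -0.014 to 0.060 for Mef2c to Spi1.

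The main fits did not pair libraries by replicate number. For the same number in the other region, the correlation of deviations had a median of 0.004 and was over 0.1 in 11 of 32 pairs. For another number in the other region the median was 0.003, with 32 of 96 pairs over 0.1. Such correlations cannot tell whether libraries of the same number came from 1 animal. With the replicate block all 9 members stayed past the day-night threshold in each region, with 6546 and 6505 genes past it, and 2 genes passed for conditions in the hippocampus and 0 for phase by condition in the frontal cortex. Between regions 3184 genes passed with pairs of regions as the block and 2937 with the number.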
